A study of Sus scrofa with 6 samples.

Results

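Kainate and delta receptors are 2 branches of the ionotropic glutamate receptor family, and 8 of their genes, of 17201 listed genes in all, are described here in pig prefrontal cortex. The 8 were taken by gene name from these receptor families, with earlier results of these data known. They are the 5 kainate subunit genes GRIK1 to GRIK5, the 2 genes of the auxiliary subunits NETO1 and NETO2, and the delta receptor gene GRID1. All 8 were listed in every library, and all 8 passed the filter on low counts that left 14373 genes for testing.

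RNA came from the prefrontal cortex of 6 pigs (Sus scrofa) aged 3 months, in a series presented as a pig model of autism. The 3 animals labelled 391, 392 and 393 were exposed to valproic acid (VPA) at 75 mg/kg, which the series' design text places in early gestation. The other 3 (401, 402 and 408) were controls with no treatment. Valproic acid is given against seizures and also inhibits histone deacetylases, and prenatal exposure to it is widely used to model autism in animals. The labels name separate animals and not their litters, so the spread between libraries may include differences between litters.

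Kainate receptors are glutamate-gated cation channels built from subunits of this family. The products of GRIK1, GRIK2 and GRIK3 can form channels by themselves, while those of GRIK4 and GRIK5, which bind kainate with high affinity, need one of the former to make a working channel. The receptors sit on both sides of cortical synapses, where they add a slow excitatory current and tune the release of glutamate and GABA. NETO proteins are membrane partners that slow the closing of these channels. Delta receptors resemble the other subunits but are not opened by glutamate alone. They serve as synaptic organisers that bind secreted cerebellins, which in turn bind neurexins on the presynaptic side.

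Total counts per library ran from 16285517 to 17989032. Levels are given as CPM (counts scaled to the file's total, where 1 CPM stood for 16.29 to 17.99 reads) or, to compare genes of different length, as the authors' FPKM. VPA 393 stood apart in markers of projection neurons of the striatum, a deep structure below the cortex. The summed level of those 8 markers was 537 CPM in VPA 393, 160.5 and 177.5 CPM in the other VPA libraries and 124.4 to 140 CPM in controls. Fold changes of the 8 receptor genes are therefore also given without VPA 393. Markers of cortical cells were present in every library, with no marker of any list at 0 throughout.

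The length-scaled levels of the 8 genes spanned more than a factor of 10. NETO2 (20.26 ± 1.44 FPKM) and GRIK5 (19.74 ± 1.20 FPKM) were highest (SD, n = 6 libraries), and their ranges overlapped, with NETO2 above GRIK5 in 4 of 6 libraries. GRID1 followed at 17.00 ± 0.436 FPKM, below GRIK5 in all 6. NETO1 had 11.09 ± 0.221 FPKM and GRIK3 10.28 ± 0.707 FPKM, again with overlapping ranges. GRIK4 (7.377 ± 0.719 FPKM), GRIK2 (3.98 ± 0.269 FPKM) and GRIK1 (1.358 ± 0.104 FPKM) came last, each clear of its neighbours in every library. GRIK1 was thus the least abundant kainate subunit gene per length and GRIK5 the most abundant.

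**Figure D1:**
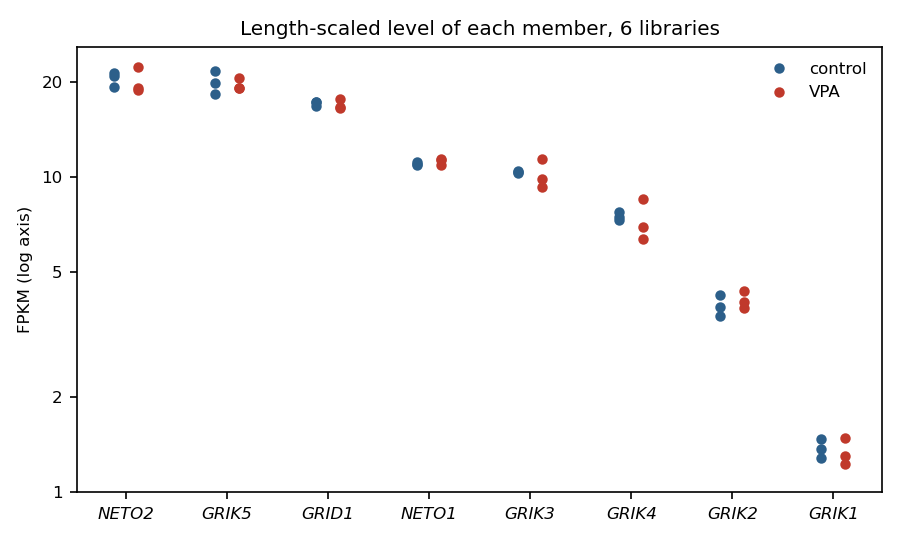
FPKM of each gene on a log axis, with 1 point per library, controls in blue and VPA in red, in order of the mean. NETO2 and GRIK5 lie near 20 FPKM and GRIK1 near 1.358 FPKM, and for every gene the red and blue points share a range.

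These positions depend on the gene lengths behind the authors' FPKM. Those lengths, recovered from count, total and FPKM, were 19787 bases for GRIK1, 11785 for GRIK2 and 10899 for GRIK3, against 3532 for GRIK4 and 6584 for GRIK5. On the CPM scale, which is not divided by length, the order of mean levels was GRIK5 (130 CPM), GRIK3 (112 CPM), NETO1 (98.64 CPM), NETO2 (71.22 CPM), GRID1 (59.34 CPM), GRIK2 (46.91 CPM), GRIK1 (26.87 CPM) and GRIK4 (26.06 CPM). None of the 8 genes held the same rank on both scales. GRIK5 was the highest kainate subunit gene on either scale, and the last place passed from GRIK1 on the FPKM scale to GRIK4 on the CPM scale.

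The question the design poses is whether prenatal VPA exposure was followed by a different expression level at 3 months. For the 8 receptor genes no difference was called, and every point estimate was small. Of the 8, 0 were called, meaning an adjusted p under 0.05 by the quasi-likelihood test of edgeR with Benjamini-Hochberg adjustment over all tested genes, while 0.362% of all tested genes were. At an unadjusted p under 0.05 the count was also 0 of 8, against 16.2% of all tested genes, and DESeq2 called 0 of 8, against 3.14%. The groups overlapped in all 8 genes, while 21.2% of all tested genes had groups that did not overlap. Log2 fold changes, VPA over control, ran from -0.057 (GRIK4) to 0.048 (GRIK2). Negative values made up 6 of the 8, against 49.5% over all tested genes, and the median was -0.04, beside 0.0018 over all tested genes.

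**Figure D2:**
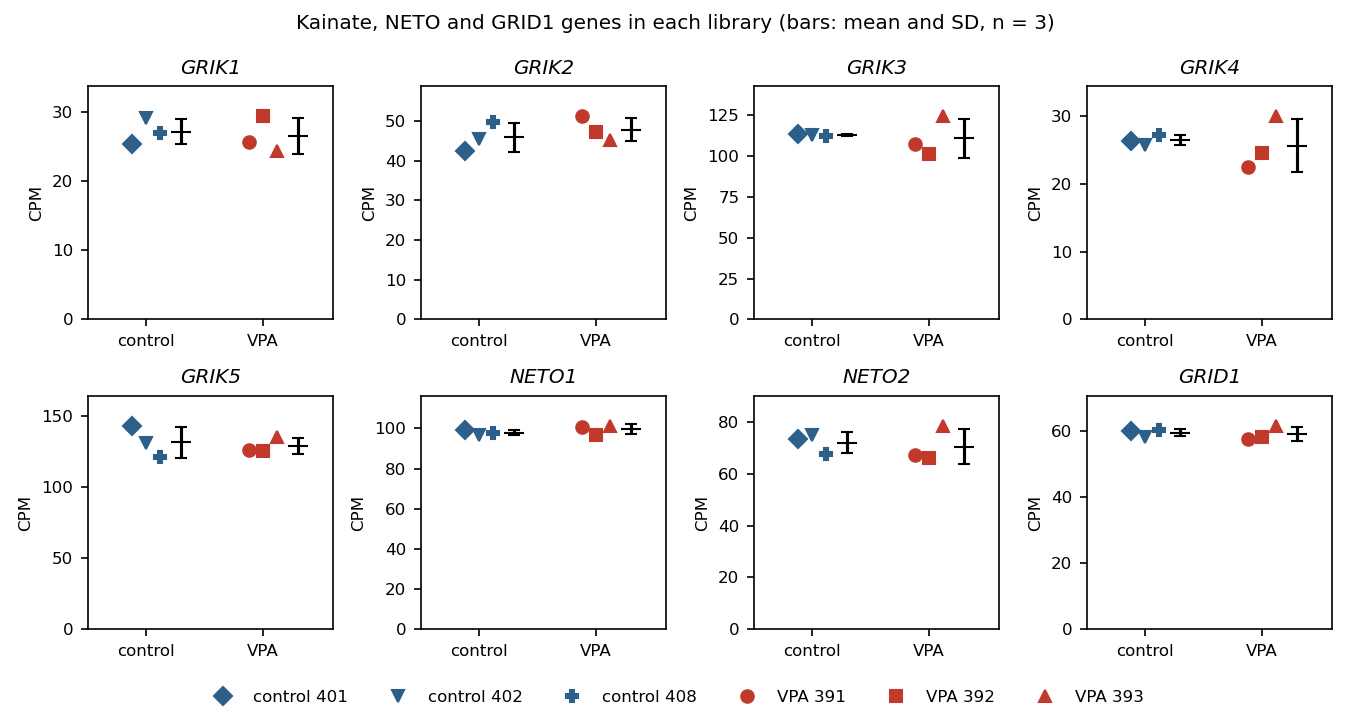
CPM of each gene in each library from 0 upward, controls in blue and VPA in red with 1 symbol per animal, and the mean with SD (n = 3) in black. The groups overlap in all 8 panels, and VPA 393 is the highest library in 5 of them.

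Among the subunits that can form channels alone, GRIK3 had the most counts. GRIK3 stood at 107.5, 101.1 and 124.4 CPM in VPA 391, 392 and 393, and at 113.8, 113.1 and 112.1 CPM in controls 401, 402 and 408. The controls were nearly equal, and the VPA libraries lay on both sides of them. The means were 111 ± 12 CPM in VPA and 113 ± 0.850 CPM in controls (SD, n = 3 each; log2 fold change -0.038 ± 0.069 SE, edgeR adjusted p = 0.832). The 95% interval of the fold ran from 0.876 to 1.08.

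GRIK2 encodes the subunit found in most kainate receptors of the forebrain. It had 51.18, 47.16 and 45.31 CPM in VPA 391, 392 and 393, and 42.53, 45.50 and 49.77 CPM in controls 401, 402 and 408. The highest library was a VPA animal and the lowest a control, with the others interleaved. GRIK2 was 1 of only 2 of the 8 genes with a positive estimate (log2 fold change 0.048 ± 0.0842 SE, edgeR adjusted p = 0.830, interval of the fold 0.908 to 1.18). That estimate turned to -0.016 without VPA 391 and to -0.015 without control 401.

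GRIK1, a subunit gene used by many cortical interneurons, had 25.77, 29.41 and 24.35 CPM in VPA 391, 392 and 393. In controls 401, 402 and 408 it had 25.46, 29.12 and 27.07 CPM. The spread within each group exceeded the difference of the means, 26.51 ± 2.61 against 27.22 ± 1.84 CPM (SD, n = 3 each; log2 fold change -0.051 ± 0.0958 SE, edgeR adjusted p = 0.840). With 431 to 491 reads per library it was among the 2 thinnest of the 8 genes, and its interval was correspondingly wide, from 0.833 to 1.12 in fold.

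The 2 high-affinity subunit genes were the highest and the lowest of the 5 kainate genes on the CPM scale, and the first and the third on the FPKM scale. GRIK5, the widespread high-affinity partner, had 125.5, 125.3 and 135.2 CPM in VPA 391, 392 and 393, and 142.4, 130.7 and 120.6 CPM in controls 401, 402 and 408. Controls 401 and 408 were the highest and the lowest of all 6 libraries, so the VPA values fell inside the control range. The log2 fold change was -0.041 ± 0.063 SE (edgeR adjusted p = 0.798, interval of the fold 0.882 to 1.07) and 0.011 without control 401.

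GRIK4, the rarer high-affinity subunit gene, had 22.48, 24.50 and 29.97 CPM in VPA 391, 392 and 393, and 26.35, 25.74 and 27.30 CPM in controls 401, 402 and 408. VPA animals were both the lowest and the highest of the 6. Its means were 25.65 ± 3.87 CPM in VPA and 26.46 ± 0.785 CPM in controls (SD, n = 3 each; log2 fold change -0.057 ± 0.104 SE, edgeR adjusted p = 0.833). At 376 to 539 reads per library it had the widest interval of the 8, from 0.820 to 1.13 in fold.

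The auxiliary subunit gene NETO1 was the steadiest of the 8. It had 100.8, 96.59 and 101.0 CPM in VPA 391, 392 and 393, and 99.06, 96.80 and 97.54 CPM in controls 401, 402 and 408. All 6 libraries lay within a few CPM of each other, with the 2 groups interleaved. The log2 fold change was 0.012 ± 0.0489 SE (edgeR adjusted p = 0.933), and the interval of the fold was the narrowest of the 8, from 0.935 to 1.09.

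NETO2, its paralogue, varied more. It had 67.03, 66.01 and 78.28 CPM in VPA 391, 392 and 393, and 73.38, 75.09 and 67.51 CPM in controls 401, 402 and 408. The highest and the lowest library were both VPA animals. The log2 fold change was -0.044 ± 0.0751 SE (edgeR adjusted p = 0.823, interval of the fold 0.865 to 1.09).

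GRID1 encodes the delta receptor subunit GluD1, a postsynaptic organiser that is widespread in the forebrain. It had 57.58, 58.21 and 61.55 CPM in VPA 391, 392 and 393, and 60.04, 58.37 and 60.29 CPM in controls 401, 402 and 408. The groups shared most of their narrow range. The log2 fold change was -0.024 ± 0.0595 SE (edgeR adjusted p = 0.884, interval of the fold 0.898 to 1.08).

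These intervals set what the 6 libraries could have missed. For all 8 genes the 95% interval from all 6 libraries excluded a fold below 0.820 or above 1.18. For NETO1 it excluded a fold below 0.935 or above 1.09. Without VPA 393 these bounds did not hold. The interval of the log2 fold change then reached down to -0.387 for GRIK4, from -0.287 with all 6 libraries. For GRIK2 it reached up to 0.299, from 0.234. Changes inside a gene's interval cannot be told from no change with these 6 libraries. Intervals rest on the spread between these animals as modelled across genes and on no other source of error.

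The 8 genes differed from each other in how much they varied between animals. The coefficient of variation of CPM over all 6 libraries was 1.99% for NETO1 and 2.56% for GRID1, close to what counting error alone gives at their read numbers (2.42% and 3.13%). Of all tested genes 0.605% varied less than NETO1 and 1.95% less than GRID1. This comparison was not matched for read number, and genes with fewer reads have a larger counting error. The other 6 ran from 6.08% (GRIK5) to 9.74% (GRIK4), above their counting errors of 2.11% to 4.71%, where the median tested gene had 9.29%. GRIK4 was the only one of the 8 above that median.

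Part of this spread lay in VPA 393. It was the highest of the 6 libraries for GRIK3, GRIK4, NETO1, NETO2 and GRID1, and the lowest for GRIK1. Relative to the mean of VPA 391 and 392, VPA 393 stood 27.6% higher for GRIK4, 19.3% higher for GRIK3 and 17.7% higher for NETO2. It stood 7.84% higher for GRIK5 and 6.31% higher for GRID1. For GRIK1 the same comparison gave -11.7% and for GRIK2 -7.84%.

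**Figure D3:**
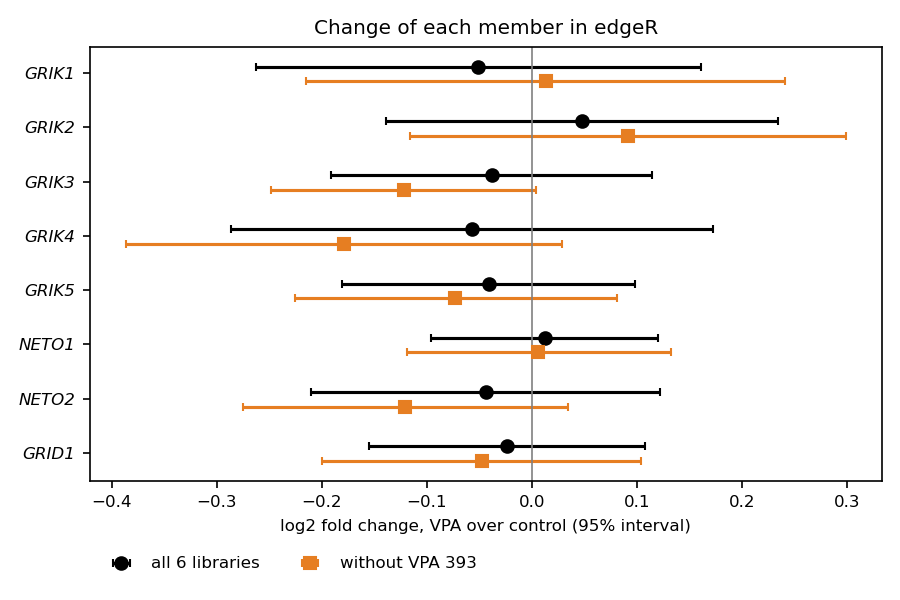
Log2 fold change of each gene, VPA over control, with its 95% interval from edgeR, for all 6 libraries (black circles) and without VPA 393 (orange squares). Every interval spans 0, and without VPA 393 the estimates for GRIK3, GRIK4 and NETO2 move left, to -0.122, -0.179 and -0.121.

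Without VPA 393 the estimates for GRIK3, GRIK4 and NETO2 became larger in size and none of the 8 genes was called, where 0.0069% of all tested genes were. The log2 fold change was -0.122 ± 0.0566 SE for GRIK3 (edgeR unadjusted p = 0.056, adjusted p = 0.333). It was -0.179 ± 0.0933 SE for GRIK4 (adjusted p = 0.394) and -0.121 ± 0.0694 SE for NETO2 (adjusted p = 0.440). In these 3 genes and in GRID1 both remaining VPA libraries lay below all 3 controls, that is in 4 of 8 genes, where 15.9% of all tested genes did so. GRIK1 changed sign, to 0.013, and the median of the 8 went to -0.06. Whether the higher striatal marker level of VPA 393 has a part in these values was not tested.

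Subunit composition was compared as shares of the summed FPKM of GRIK1 to GRIK5 within each library, which do not depend on scaling between libraries. GRIK5 made up 46.14% ± 0.878 of the kainate subunit FPKM in VPA and 46.24% ± 2.50 in controls (SD, n = 3 each). GRIK3 made up 23.98% ± 1.16 and 24.08% ± 0.528, and GRIK4 17.08% ± 1.55 and 17.41% ± 0.893. GRIK2 followed with 9.628% ± 1.09 and 9.067% ± 0.976, and GRIK1 with 3.179% ± 0.473 and 3.198% ± 0.275. The groups overlapped in all 5 shares, and each difference of means was smaller than the spread within the groups.

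The high-affinity subunit genes GRIK4 and GRIK5 together held 62.11, 63.75 and 63.77% of the kainate subunit FPKM in VPA 391, 392 and 393. In controls 401, 402 and 408 they held 65.48, 63.34 and 62.13%. On this scale they formed the majority in every library, with the groups interleaved. As shares of summed CPM, which is not divided by length, they held 43.91 to 48.14%, so the majority rests on the gene lengths behind the FPKM, among them the 19787 bases of GRIK1. NETO1 held 37.28, 36.64 and 33.78% of the summed NETO1 and NETO2 FPKM in VPA 391, 392 and 393, and 34.79, 33.75 and 36.35% in controls 401, 402 and 408. Without VPA 393 the VPA libraries lay narrowly above all controls in this share (36.64% in VPA 392 against 36.35% in control 408). The difference of the means went from 0.936 to 2 points. It was 0.245 points without VPA 391, 0.565 without VPA 392, 0.33 without control 402 and 1.63 without control 408. NETO2 was the more abundant of the pair per length in each animal, and NETO1 had the higher CPM.

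**Figure D4:**
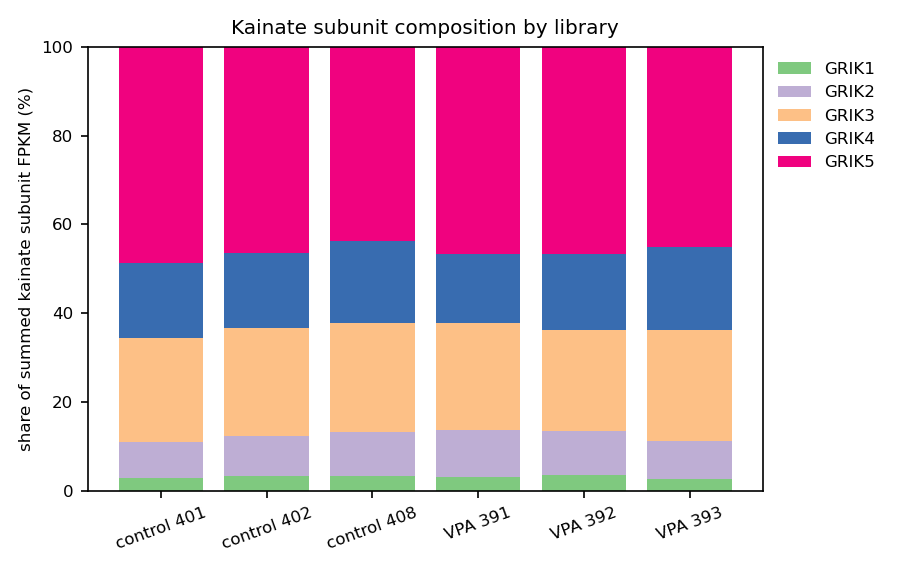
Stacked bars give the share (%) of each of GRIK1 to GRIK5 in the summed kainate subunit FPKM of each library, controls left and VPA right. GRIK5 takes 43.70 to 48.69% of every bar and GRIK1 2.704 to 3.65%.

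Beside the AMPA receptor genes GRIA1 to GRIA4, which encode the main fast glutamate receptors, kainate subunit RNA was the smaller pool. The 5 kainate genes summed to 42.73 ± 1.92 FPKM and the 4 AMPA genes to 141.7 ± 6.93 FPKM (SD, n = 6 libraries). The AMPA sum was 137.9, 130.1 and 142.6 FPKM in VPA 391, 392 and 393. In controls 401, 402 and 408 it was 144.8, 144.2 and 150.3 FPKM, without overlap, as in 21.2% of single tested genes. Kainate sums overlapped, at 40.94, 40.72 and 45.51 FPKM in VPA and 44.43, 42.86 and 41.93 FPKM in controls. The kainate sum amounted to 29.69, 31.30 and 31.92% of the AMPA sum in VPA 391, 392 and 393, and to 30.67, 29.71 and 27.90% in controls 401, 402 and 408, so this ratio overlapped between groups. All 4 AMPA genes had negative log2 fold changes (median -0.10) and 2 had an unadjusted edgeR p under 0.05, against 4 of 5 negative (median -0.041) and 0 for kainate genes, beside 16.2% of all tested genes with such a p. None of either family was called. Whether the families differ in their response was not tested. Of the 7 NMDA receptor genes 6 were listed, and their sum is not used here.

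The other pathway genes considered were 28 ligands, partners and modifying enzymes, of which 26 were tested. None was called in either direction, where 0.278% of all tested genes were called higher and 0.0835% lower. At an unadjusted edgeR p under 0.05, 4 of 26 were lower and 0 higher in VPA, against 7.47% and 8.69% of all tested genes. The median log2 fold change of the 26 was -0.0455, with 15 negative and 11 positive. DESeq2 also called 0 of the 26. It gave a p for 27 pathway genes, with 5 lower and 0 higher at an unadjusted p under 0.05. The shares among all genes with a p in DESeq2 were 5.31% lower and 5.73% higher. The 4 genes lower in edgeR were CBLN2, C1QL3, NRXN3 and DLG3. Without VPA 393, 6 were lower and 3 higher at an unadjusted p under 0.05, against 7.33% and 8.46% of all genes tested in that fit. CBLN2 and C1QL3 had the lowest p and are named by the rule for this list, while the other 2 are named after their values were seen.

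CBLN2, a cerebellin that links delta receptors to neurexins, had 67.39, 63.86 and 66.83 CPM in VPA 391, 392 and 393. In controls 401, 402 and 408 it had 72.93, 77.59 and 76.67 CPM. All VPA animals lay below all controls, with a log2 fold change of -0.21 ± 0.0584 SE (edgeR adjusted p = 0.124). The adjusted p ran from 0.0994 to 0.862 over its alternatives.

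C1QL3, a secreted C1q-family protein that binds kainate receptors and the adhesion receptor encoded by ADGRB3, had 165.6, 170.2 and 168.3 CPM in VPA 391, 392 and 393. In controls 401, 402 and 408 it had 194.4, 174.3 and 199.0 CPM. Again the groups did not overlap, although control 402 lay close to the VPA values (log2 fold change -0.18 ± 0.0553 SE, edgeR adjusted p = 0.142, up to 0.624 over its alternatives).

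The neurexin gene NRXN3, whose products are presynaptic partners of cerebellins, had a log2 fold change of -0.20 ± 0.0611 SE (edgeR adjusted p = 0.147). Its highest VPA library and the lowest control were both at 216.9 CPM. NRXN2, another neurexin gene, stood at -0.010 (adjusted p = 0.948). DLG3, a postsynaptic scaffold gene, stood at -0.14 ± 0.051 SE (adjusted p = 0.200), and at -0.103 without VPA 392 (unadjusted p = 0.0767).

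**Figure D5:**
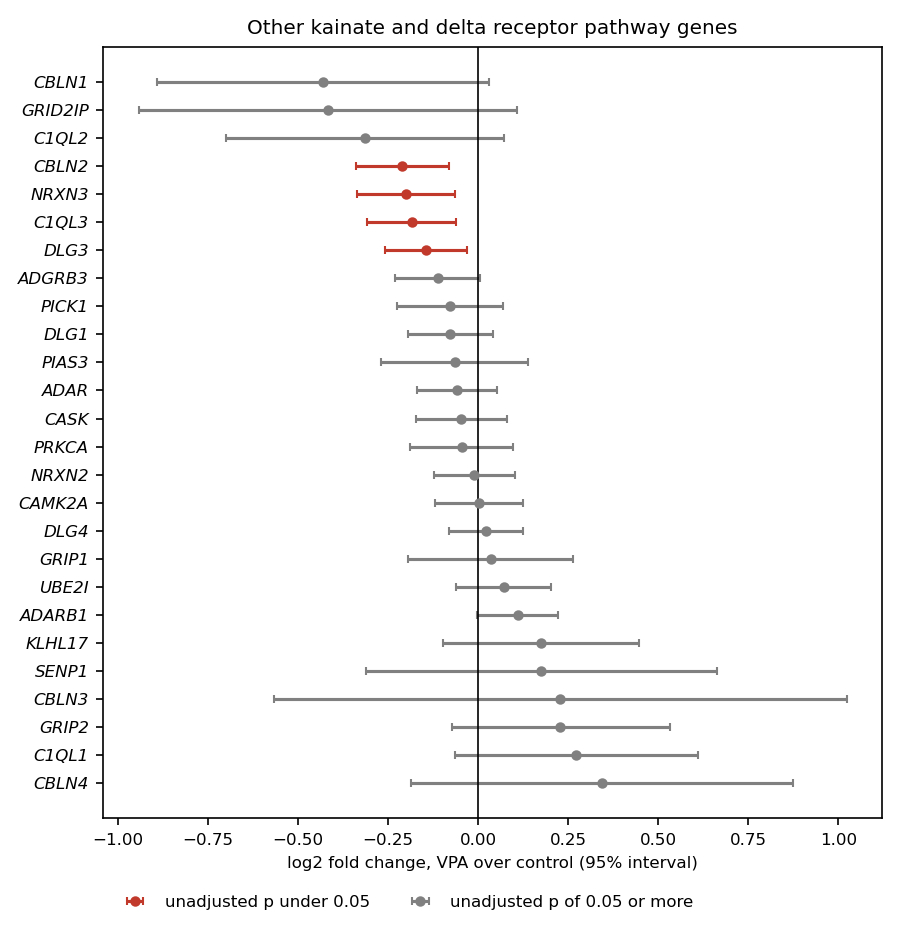
Log2 fold change with 95% interval (edgeR) of the 26 tested pathway genes, VPA over control, in order of size. The 4 genes in red have an unadjusted p under 0.05 and intervals below 0, and all other intervals span 0.

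By role, 4 of 7 tested C1q-family ligand genes had negative log2 fold changes (median -0.184), as did all 3 surface partner genes described (median -0.112). Among intracellular partners 5 of 9 were negative (median -0.0461), and among editing, SUMO and kinase enzymes 3 of 7 (median 0.0034). ADARB1, the editing enzyme gene that acts on kainate subunit transcripts, was the only one of the 26 with all VPA libraries above all controls (116.6 ± 4.06 against 107.1 ± 2.61 CPM, SD, n = 3 each; edgeR adjusted p = 0.315). It too is named after its values were seen. Over all tested genes 12.1% had VPA above and 9.07% VPA below, with no overlap.

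Markers of several cell types leaned mostly to the same side between these groups in the same libraries. Summed levels overlapped between groups in every list but the oligodendrocyte precursor and striatal ones. In bulk tissue, fewer cells of a type and less RNA per cell cannot be told apart. All 10 oligodendrocyte markers had positive log2 fold changes (median 0.339), with summed levels of 16540 to 18660 CPM in VPA and 12740 to 17100 CPM in controls. All 8 precursor markers were positive (median 0.25; sums of 1014 to 1180 against 808.4 to 959.5 CPM), and 7 of 8 astrocyte markers (median 0.185; 8318 to 9638 against 7659 to 8356 CPM). Of 8 glutamatergic neuron markers 6 were negative (median -0.157; 3807 to 4151 against 4081 to 4192 CPM), and of 10 interneuron markers 7 were positive (median 0.0954; 989.4 to 1033 against 990.5 to 1006 CPM). All 8 striatal markers were positive (median 1.16), with VPA 393 far above the rest. Their sum was 537 CPM there, 160.5 and 177.5 CPM in VPA 391 and 392 and 124.4 to 140 CPM in controls. No marker of these 6 lists was called. Log2 fold changes of the most abundant markers included 0.23 (MBP), 0.27 (PTPRZ1), 0.34 (OLIG1), 0.18 (SLC1A2) and 0.056 (GFAP) in the glial lists. They were 0.003 (CAMK2A), -0.13 (SLC17A7), 0.099 (GAD1), -0.30 (LAMP5), 0.95 (PPP1R1B) and 1.19 (PENK) in the neuronal ones. With the oligodendrocyte marker score as a covariate, 0 of the 8 receptor genes and 0 of the 26 pathway genes were called. CBLN2 then had a log2 fold change of -0.127 ± 0.104 SE (edgeR adjusted p = 0.862). It was -0.104 ± 0.106 SE for NRXN3, -0.087 ± 0.0914 SE for DLG3 and -0.308 ± 0.0898 SE for C1QL3. All 10 markers in the score leaned higher in VPA, so score and group are partly confounded. Over all tested genes, 1000 had an unadjusted edgeR p under 0.05 in that fit, against 2322 in the main one. Whether oligodendrocyte content has a part in these values was not tested.

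The other lists moved less or unevenly. Microglia markers had summed levels of 311.3 to 323.2 CPM in VPA and 255.4 to 313.2 CPM in controls (5 of 6 positive), endothelial markers 275.6 to 337.2 and 281 to 290.2 CPM (3 of 5 positive). Choroid plexus markers summed to 50.84 to 61.77 and 44.08 to 56.35 CPM (2 of 5 positive, 1 of them called higher). Red blood cell markers summed to 125.9 to 204.8 CPM in VPA, and from 23.51 to 208.1 CPM within the controls. The most abundant markers of these lists had log2 fold changes of 0.13 (CSF1R), 0.12 (P2RY12), 0.035 (VWF), 0.23 (FLT1), -0.060 (FOLR1), 0.48 (KCNJ13), 0.91 (HBB) and 0.90 (ALAS2). What part any of these has in the receptor values was not tested.

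GRIK5 had the lowest p of the 8 genes (edgeR unadjusted p = 0.526), and the genes most like it across libraries were sought among 10195 tested genes with a mean of at least 10 CPM. Among the 3 highest Pearson correlations of log2 CPM over the 6 libraries were 0.990 for FCGRT and 0.987 for DNAJC30. In all, 52 of these 10195 genes exceeded 0.9, and how many unrelated genes would do so was not tested. With only 6 libraries this is a description only.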

How the data were processed

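Per the labels' protocols, RNA was isolated with TRIzol and a VAHTS Universal V6 kit served for library preparation. How reads were aligned and counted, their strandedness and the genome build are not stated in the sources used here, and no coordinates or sequences are printed. Per the file headers, the authors deposited a raw count and an FPKM value for every gene. All 97071 nonzero FPKM values equalled the count over the file's total and a fixed gene length (relative tolerance 0.001). Of 17201 names 17177 matched RefSeq symbols of Sscrofa11.1, and 24 had become dates. Those 24 stayed in the library sizes and went through the same filter and fits, and none is named here. No 2 libraries agreed within sampling noise (chi-square per degree of freedom 5.91 to 13.2 over 15 pairs). Reads of overlapping or near-identical genes cannot be separated.

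The counts went into edgeR 4.0.16 (R 4.3.3), with filterByExpr (14373 genes kept), TMM, glmQLFit and glmQLFTest without covariate, Benjamini-Hochberg over all tested genes, threshold 0.05. Standard errors come from the F statistic, and intervals are 95%. Functions were tested on simulated data. CPM used file totals. Alternatives were RLE, upper quartile and library size scaling, other filters, DESeq2 1.42.0, limma 3.58.1 (by voom on counts, or by its trend method on log2(FPKM + 1) or log2(FPKM + 0.1), with a mean FPKM of at least 0.5 or no filter), robust dispersion, Y-linked EIF1AY or an oligodendrocyte marker score as covariate, and each library left out. Sex is not in the labels, and 1 library of each group had 2 or fewer EIF1AY counts. The members, lists and tests were chosen with earlier results of these data known. Named genes are the 8 members, called pathway genes or the 2 with the lowest p, the 2 most abundant markers of each list, and the 3 genes most like the member with the lowest p. Some genes that the lists and the rule select are not reported here. KIF17 is not analysed here, and C1QL4 did not pass the filter.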

Additional observations from a re-analysis of the deposited data

How the results depend on the processing

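None of the 8 receptor genes and none of the pathway genes was called under any of the 19 alternatives, those for the pathway genes and the level order having been chosen after seeing the data. The count over all genes, 52 in the main analysis, was 141 without a filter, 435 with DESeq2, 30 with limma-voom and 168 with robust dispersion. It was 2 with limma on log2(FPKM + 1) and on log2(FPKM + 0.1), 1 without the FPKM filter, and 2 with the oligodendrocyte score. Leaving out 1 library gave 0 (without VPA 391 or VPA 392), 1 (VPA 393), 2 (control 408), 5 (control 402) and 66 (control 401). Of 152 values for the 8 genes 13 changed sign. With the oligodendrocyte score these were 0.072 for GRIK1, 0.019 for GRIK3, 0.001 for GRIK4, -0.002 for NETO1 and 0.044 for NETO2. Without VPA 391 they were -0.016 for GRIK2, 0.017 for GRIK4 and -0.010 for NETO1. They were 0.023 for GRIK3 without VPA 392, 0.013 for GRIK1 without VPA 393, -0.015 for GRIK2 and 0.011 for GRIK5 without control 401, and -0.001 for NETO1 without control 402. The causes were not tested. Leaving out 1 library gave ranges of -0.132 to 0.013 for GRIK1, -0.016 to 0.111 for GRIK2, -0.122 to 0.023 for GRIK3, -0.179 to 0.017 for GRIK4, -0.097 to 0.011 for GRIK5, -0.010 to 0.032 for NETO1 and -0.121 to 0 for NETO2. GRID1 stayed negative in all 19, from -0.048 to -0.011. By CPM in place of FPKM 0 of 8 genes held their rank in the level order, since CPM is not divided by length; leaving out any library kept all 8 ranks. No paired analysis was possible because the groups share no replicate numbers.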
